A study of Mus musculus with 8 samples.

Results

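The 10 genes described here are the Runx transcription factors and a set of regulators of the skeletal lineages: Runx1, Runx2, Runx3, Cbfb, Sp7, Msx2, Twist1, Sox9, Sox5 and Sox6. They were chosen by name, through the Ensembl gene ID that the GRCm38 annotation pairs with each symbol. All 10 had a row among the 19493 endogenous genes of the count table, and all 10 were among the 16470 genes that passed the filter on low counts. Runx1 lies in the stretch of mouse chromosome 16 that is duplicated in Dp1Tyb mice, a model of Down syndrome, and the other 9 genes do not.

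The libraries came from mouse embryonic fibroblasts (MEFs), connective tissue cells cultured from E14.5 littermate embryos, 4 of them wild-type (WT) and 4 Dp1Tyb. Dp1Tyb animals carry Dp(16Lipi-Zbtb21)1TybEmcf, which gives them 3 copies of the genes from Lipi to Zbtb21 where WT littermates have 2, and the line, in which WT and Dp1Tyb embryos are littermates, had been backcrossed to C57BL/6JNimr. The strain label of all 8 samples joins C57BL/6J and 129P2. Heads and viscera had been removed before the embryos were dissociated, so cells of the skull, face and internal organs were not meant to be in the cultures, and the cells had been passaged in medium with serum before RNA was taken. ERCC spike-ins, synthetic transcripts added in the same amount to the same number of cells, give a reference outside the cells. Counts were therefore compared on 2 scales, a relative one that sets each library against its own endogenous genes and a spike-in scale that sets it against the added transcripts.

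The libraries held between 17698900 and 26471758 counts, of which the 63 spike-ins made up 0.882% to 1.65%. All 10 fibroblast markers were found, at mean levels of 32.2 to 867 RPKM (counts scaled to library size and exon length). Their summed level was 22272 to 31832 CPM (counts scaled to library size) in WT and 26079 to 31666 in Dp1Tyb. Xist, which is transcribed from the inactive X chromosome of females, had 36188 counts in WT replicate 2 and 38867 in Dp1Tyb replicate 1 but 9 to 60 in the other 6 libraries. Each genotype thus had 1 library with the female pattern, and the labels name no sex. All 8 libraries carried the same lane code.

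Runx proteins bind DNA through the Runt domain, and Cbfb is the non-DNA-binding partner that raises their affinity for DNA. Runx2 and its downstream factor Sp7 (osterix) are required for osteoblasts to form, Sox9 with Sox5 and Sox6 drives the cartilage programme, and Twist1 and Msx2 act in uncommitted mesenchyme, where Twist1 can hold back Runx2. Runx1 is best known as a regulator of blood formation, and Runx3 acts in T cells and sensory neurons.

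Each Runx gene is known to be transcribed from a distal and a proximal promoter. RefSeq promoter windows of 300 bases (GRCm38.p6, from 250 bases before to 50 after the annotated start) were found for 8 of the 10 genes, 15 windows in all, and Sox9 and Sp7 had no entry. The most upstream window of each of Runx1, Runx2 and Runx3 is shown because all 3 held the same 18 bases, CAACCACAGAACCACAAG. The 30 bases around them are given 5′ to 3′ on the strand of the gene, with capitals marking ACCACA, the reverse complement of TGTGGT, a core sequence that Runx proteins recognise.
Runx1, chr16:92826025-92826054, minus strand: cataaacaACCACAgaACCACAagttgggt
Runx2, chr17:44814583-44814612, minus strand: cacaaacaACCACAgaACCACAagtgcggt
Runx3, chr4:135120503-135120532, plus strand: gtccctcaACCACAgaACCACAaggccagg
With the annotated start as base 0, the first ACCACA of this pair began 28 bases after it in Runx1, 23 bases after it in Runx2 and 134 bases before it in Runx3. The Runx2 window held 3 ACCACA in all, 1 of them upstream of the start. The 18 bases, searched on both strands, were in 4 of all 32851 promoter windows, or 0.0122%, those of the 3 Runx genes and, on the other strand, that of the gene Gm16225. The looser pattern ACCACANNACCACA was in 7 windows, or 0.0213%. TGTGGT itself was common, with a match on either strand in 16.8% of all windows. TGTGGT or the related TGCGGT was in 5 of the 15 windows of the members and in 22.4% of all windows. These 5 were the upstream window of each Runx gene and 2 windows of Sox6. The downstream windows of Runx1 and Runx3, like those of Cbfb, Sox5, Twist1 and Msx2, held neither. Runx2 had only 1 window, so no downstream window of it was searched. The tandem was noticed in these sequences and not chosen beforehand, and a match is a description of letters, not of binding. The counts were made per gene, so the output of either promoter was not measured.

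Compared per length of exon, the 10 genes fell into a high and a low set. Mean RPKM over the 8 libraries was 41.8 ± 7.16 (SD, n = 8) for Cbfb, 33.1 ± 3.13 for Twist1, 18.9 ± 7.23 for Sox9, 15.4 ± 4.71 for Runx1 and 9.28 ± 2.03 for Runx2. The other 5 were much lower, at 1.51 ± 0.480 for Sox6, 1.44 ± 0.689 for Runx3, 0.908 ± 0.230 for Msx2, 0.683 ± 0.185 for Sox5 and 0.408 ± 0.305 for Sp7. Between neighbours in this order the ranges over libraries were separate at 2 places, where Twist1 lay above Sox9 and Runx2 above Sox6, each in 8 of 8 libraries. The gap between Twist1 and Sox9 was narrow, with the lowest Twist1 library at 29.7 RPKM and the highest Sox9 library at 29.5. All other neighbours overlapped, including Sox9 and Runx1, where Sox9 was higher in 5 of 8 libraries. The order depends on which exons are counted as length. With the longest transcript in place of all exons, Runx1 was at 31.6 RPKM, ahead of Sox9 and next below Twist1 at 33.1, and Sox5 was ahead of Msx2. Runx2 transcripts were readily counted, whereas Sp7 had at most 52 counts in a library. Of the 6 osteoblast markers, Bglap had no row and the other 5 were each under 1 RPKM on average. Of the 6 chondrocyte markers, Matn1 had no row and the other 5 reached at most 1.54 RPKM.

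Runx1 (ENSMUSG00000022952, chr16:92601466-92826149, minus strand) was counted on the relative scale at 88.9, 213, 171 and 183 CPM in the WT libraries, given here and below in the order of replicates 1 to 4. The Dp1Tyb libraries were at 121, 216, 230 and 257 CPM. Of the 4 Dp1Tyb libraries 3 were above every WT library, but Dp1Tyb replicate 1 lay below 3 of the WT libraries. The lowest library of each genotype was the one numbered 1. Dp1Tyb over WT gave a fold of 1.26 (95% interval 0.811 to 1.95, log2 0.33, SE 0.28), which did not pass the test (edgeR, adjusted p = 0.999). On the spike-in scale Runx1 was 105, 188, 122 and 214 CPM in WT and 146, 148, 242 and 338 CPM in Dp1Tyb. This gave a fold of 1.39 (0.904 to 2.14, log2 0.47, SE 0.32, edgeR adjusted p = 1.00). Both intervals held 1 and also held 1.5, the ratio of gene copies.

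The distance of Runx1 from a fold change of 1.5 was tested directly. It was −0.25 on the log2 scale (SE 0.28) with relative scaling and −0.11 (SE 0.32) with spike-in scaling, neither of them past an unadjusted p of 0.05 in edgeR. With a replicate block the relative distance was −0.24 (SE 0.10), past that threshold, and the spike-in distance −0.14 (SE 0.25), not past it. The replicate numbers were not taken as pairs. Among the 112 tested genes of the duplicated region Runx1 ranked 80th by relative fold change and 77th by spike-in fold change, counted from the highest. On the relative scale every gene ranked below Runx1 had a lower mean level, at most 11.3 RPKM (Gm15971) beside 15.4 for Runx1. Most of them carried Gm or Rik names. The others were Mir99ahg, Rbm11, Samsn1, Cyyr1, Hunk, Setd4 and Sim2, at 0.108 to 1.31 RPKM. The median log2 fold change of the region, with all these genes included, was 0.54 on the relative and 0.64 on the spike-in scale. On these scales 101 and 107 of the 112 genes were higher in Dp1Tyb. Of the region genes, 72 had a smaller standard error than Runx1 on the relative scale and 3 had a smaller one on the spike-in scale. The spike-in standard errors of well-counted genes were nearly alike, at 0.32 for each of Runx1, Runx2, Cbfb, Sox9 and Twist1. The count of 3 is therefore not a measure of how precisely Runx1 was measured. Leaving out WT replicate 1 took the relative log2 fold change of Runx1 to 0.13, and leaving out Dp1Tyb replicate 1 took it to 0.52. Without both it was 0.31 (SE 0.12, edgeR adjusted p = 0.861, an alternative added after the values had been seen). With spike-in scaling it ran from 0.19 without Dp1Tyb replicate 4 to 0.67 without WT replicate 4.

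**Figure D1:**
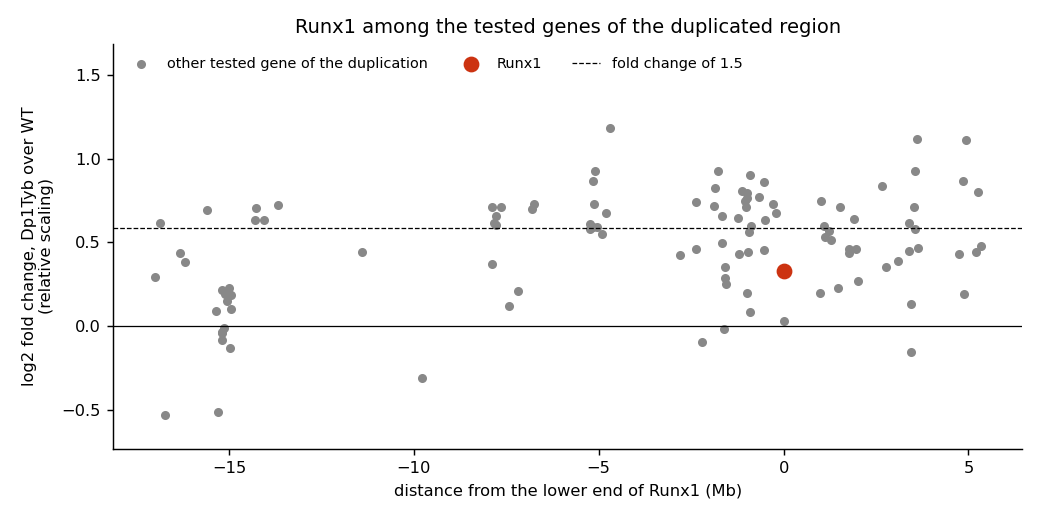
Each point is one of the 112 tested genes of the duplicated region, placed by its distance from the lower end of Runx1 in Mb (x) and its log2 fold change of Dp1Tyb over WT on the relative scale (y), with the dashed line at a fold change of 1.5. Runx1, in red at 0.33, lies below the median of 0.54 and ranks 80th. Most of the genes below it carry Gm or Rik names, and all of them have a lower mean RPKM.

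The 2 nearest tested genes on each side of Runx1 had relative log2 fold changes of 0.19 to 0.75. Smim11, which encodes a small membrane protein, was at 9.18 ± 1.92 CPM in WT and 15.2 ± 3.27 CPM in Dp1Tyb cultures (SD over 4 libraries), without overlap on the relative scale, at a log2 fold change of 0.73 (SE 0.20, edgeR adjusted p = 0.876). Rcan1, an inhibitor of calcineurin, was at 47.2 ± 16.8 and 75.5 ± 14.6 CPM, with a log2 fold change of 0.68 (SE 0.25, edgeR adjusted p = 0.999). On the other side, Setd4, which encodes a SET-domain protein, was at 4.35 ± 0.772 and 4.99 ± 0.463 CPM with a log2 fold change of 0.19 (SE 0.18). Cbr1, the next tested gene beyond Setd4, had a log2 fold change of 0.75. Gm26626, an antisense gene within Runx1, had 26 to 45 counts per library, 1.01% of those of Runx1, and a log2 fold change of 0.03 (SE 0.22). The strand option of the counting is not given in the sources used here, so reads of overlapping antisense pairs such as this one may not be separated.

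Runx2 (ENSMUSG00000039153, chr17:44495987-44814797, minus strand), the osteoblast factor, was at 76.0, 75.001, 99.3 and 116 CPM in WT and at 71.6, 58.4, 74.5 and 85.8 CPM in Dp1Tyb. Of the Dp1Tyb libraries 3 were below every WT library and replicate 4 was within their range. The relative log2 fold change was −0.33 (SE 0.17, 95% interval −0.71 to 0.04, edgeR adjusted p = 0.999), the smallest unadjusted p of the 10 genes on that scale. With spike-in scaling it was −0.19 (SE 0.32), and leaving out WT replicate 4 turned it to 0.07. Supt3, a transcription factor subunit gene that lies across Runx2 on the opposite strand, had 14.2% as many counts as Runx2 and a relative log2 fold change of 0.02 (SE 0.13). The antisense genes Runx2os1 and Runx2os2 had 1.15% and 3.47% as many.

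Runx3 (ENSMUSG00000070691, chr4:135120652-135177990, plus strand) was present at a low level, with 45, 174, 191 and 247 counts in WT and 95, 100, 136 and 193 counts in Dp1Tyb. In CPM these were 2.01, 7.38, 9.05 and 11.99 against 3.67, 5.77, 6.69 and 11.1. As for Runx1, replicate 1 was the lowest of each genotype. The groups overlapped throughout, with a relative log2 fold change of −0.16 (SE 0.48, interval −1.24 to 0.91). Its spread within groups was wider than that of 96.7% of the genes tested. The defining T cell markers Cd3e, Cd3d, Cd3g and Cd8a had no row, and Lck, the only one of the 5 T cell markers with counts, summed to 0.582 to 1.03 CPM in WT and 1.01 to 1.18 in Dp1Tyb.

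Cbfb (ENSMUSG00000031885, chr8:105170674-105217989, plus strand), the shared partner, was the most highly expressed of the 10 genes per length and the one with the smallest fold change on the relative scale. It was at 125, 170, 150 and 135 CPM in WT and 109, 185, 158 and 133 CPM in Dp1Tyb, so the Dp1Tyb libraries held both the highest and the lowest value. The log2 fold change was 0.01 (SE 0.17, interval −0.36 to 0.38) on the relative scale and 0.09 (SE 0.32) on the spike-in scale. The relative interval lies below the log2 of 1.5, 0.58.

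**Figure D2:**
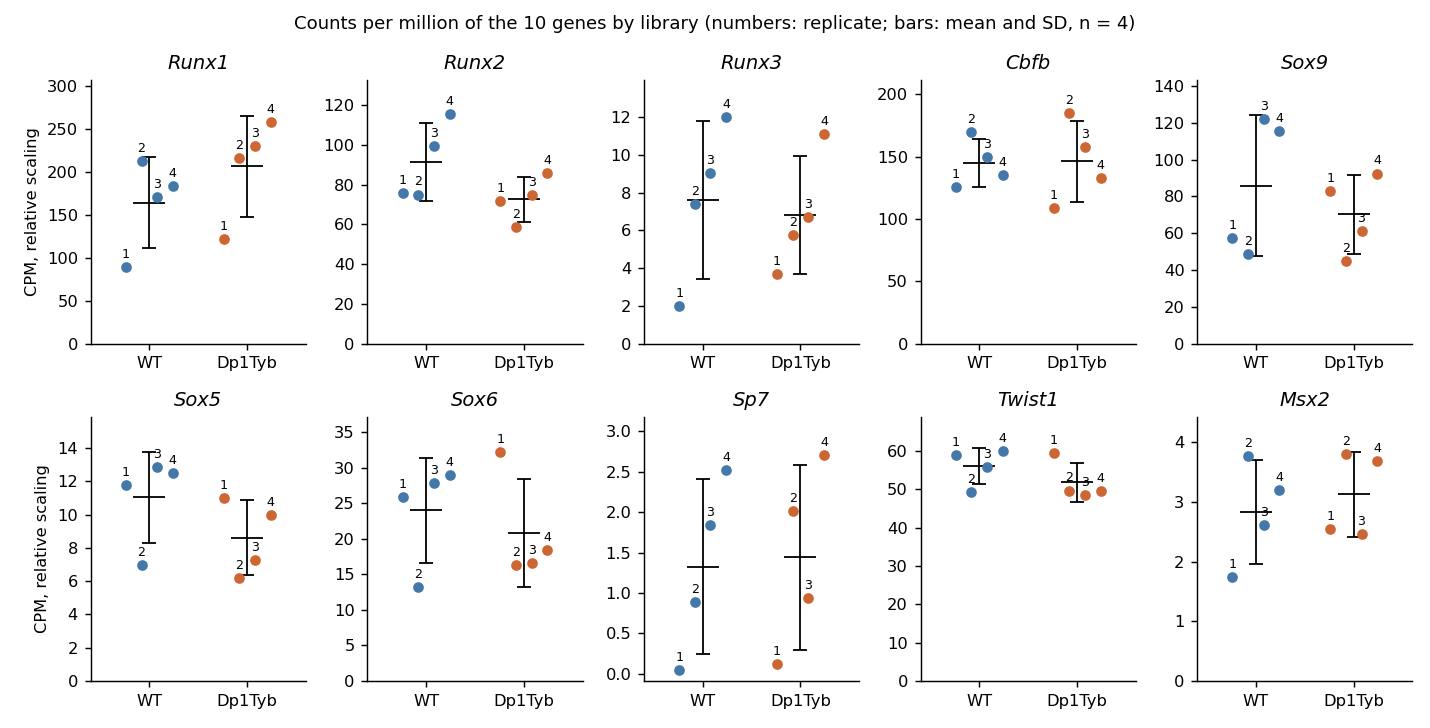
CPM of each of the 10 genes on the relative scale, with 1 point per library numbered by replicate, WT in blue and Dp1Tyb in orange, and bars for the mean and SD (n = 4). No gene separates the genotypes, and replicate 1 is the lowest library of each genotype for Runx1, Runx3, Cbfb and Sp7.

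Within the Runx family, Runx1 and Runx2 made up nearly all transcripts. Runx1 took 45.1%, 64.0%, 52.1% and 49.6% of the summed Runx RPKM in WT, against 53.3%, 69.8%, 66.2% and 64.2% in Dp1Tyb. Runx2 took 41.7% ± 8.90 in WT and 31.7% ± 7.59 in Dp1Tyb, and Runx3 5.56% ± 2.30 and 4.91% ± 1.21 (SD, n = 4). By RPKM over all exons Runx1 was ahead of Runx2 in every library except WT replicate 1, and in counts, which take no account of length, it was ahead in all 8. The shares depend on the length used. With the longest transcript as length, mean RPKM over the 8 libraries was 31.6 for Runx1, 12.7 for Runx2 and 1.86 for Runx3. A ratio of 2 genes within a library does not depend on the scaling, and 9 such ratios were compared by exact permutation tests, two-sided, whose smallest possible p is 0.0286. The log2 ratio of Runx1 to Runx2 counts was 0.79 ± 0.53 in WT and 1.46 ± 0.49 in Dp1Tyb, a 1.59-fold difference, with 3 Dp1Tyb libraries above every WT library (exact p = 0.0857, 0.771 after adjustment over the 9). Runx1 to Cbfb differed by 0.35 (exact p = 0.314), and Runx2 to Twist1 by −0.21 (exact p = 0.286). None of the 9 ratios passed the test. With this smallest possible p, 1 ratio alone could not pass after adjustment over the 9, so no conclusion is drawn from that.

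**Figure D3:**
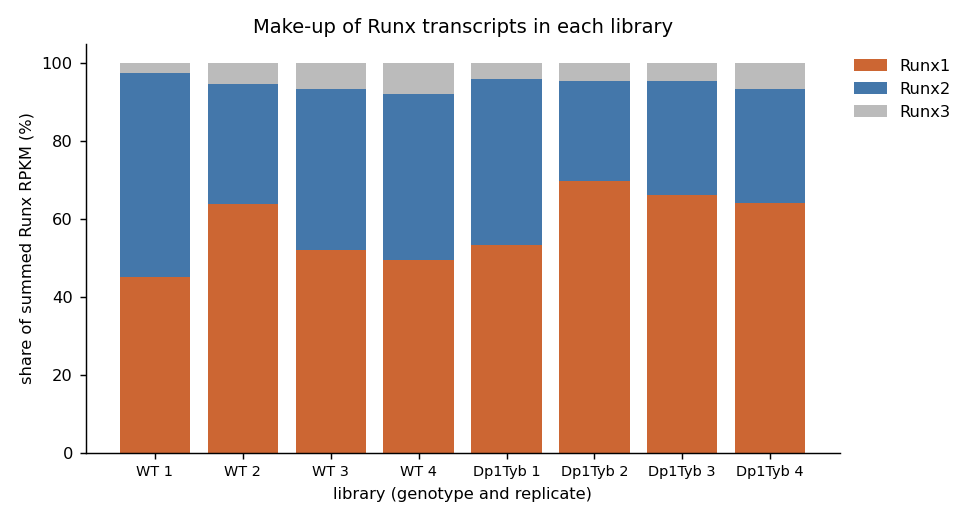
Stacked bars give the share of the summed RPKM of the 3 Runx genes, in percent, for each library, with Runx1 in orange, Runx2 in blue and Runx3 in grey. The Runx1 share runs from 45.1% to 64.0% in WT and from 53.3% to 69.8% in Dp1Tyb, so the ranges overlap. RPKM is over all exons, and the shares depend on that choice of length.

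Sp7 (ENSMUSG00000060284, chr15:102356606-102367182, minus strand), the zinc finger factor downstream of Runx2, varied more between libraries than any other member. It had 1, 21, 39 and 52 counts in WT and 3, 35, 19 and 47 counts in Dp1Tyb. Both libraries numbered 1 had almost none: the exact 95% Poisson interval is 0.0253 to 5.57 counts for WT replicate 1 and 0.619 to 8.77 for Dp1Tyb replicate 1, against 11.4 to 29.7 for the next lowest, Dp1Tyb replicate 3. These intervals cover counting error only. The log2 spread within groups exceeded that of 99.9% of the genes tested. The relative log2 fold change of 0.09 had a standard error of 0.89 and a 95% interval of −1.88 to 2.07, the widest of the 10 genes. Msx2 (ENSMUSG00000021469, chr13:53466884-53473074, minus strand), a homeobox factor of bone-forming mesenchyme, had 39 to 89 counts in WT and 50 to 66 in Dp1Tyb. It was at 1.74, 3.78, 2.61 and 3.20 CPM in WT and 2.55, 3.81, 2.46 and 3.68 CPM in Dp1Tyb, overlapping over most of the range, with a log2 fold change of 0.14 (SE 0.28).

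Twist1 (ENSMUSG00000035799, chr12:33957671-33959829, plus strand), a basic helix-loop-helix factor of mesenchyme, was the steadiest member on the relative scale. It was at 58.9, 49.4, 55.8 and 59.9 CPM in WT and 59.4, 49.7, 48.4 and 49.7 CPM in Dp1Tyb. The highest of these 8 values was only 1.24 times the lowest, and 12.7% of the genes tested varied less within groups. On the spike-in scale the highest was 2.09 times the lowest, against 1.63 times for Cbfb. The relative log2 fold change was −0.11 (SE 0.11, interval −0.35 to 0.13), the tightest interval of the 10 genes. The spike-in value was −0.01 (SE 0.32).

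Sox9 (ENSMUSG00000000567, chr11:112782224-112787760, plus strand), the master regulator of cartilage, was at 57.1, 48.6, 122 and 116 CPM in WT and 82.9, 44.7, 61.2 and 92.4 CPM in Dp1Tyb. The WT libraries split into a low and a high pair and the Dp1Tyb values lay between or just below. The relative log2 fold change was −0.29 (SE 0.33) and moved to −0.06 without WT replicate 3. Its spike-in value was −0.07 (SE 0.32), with the direction changing under 3 of 16 alternatives.

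Sox5 (ENSMUSG00000041540, chr6:143828425-144781977, minus strand) and Sox6 (ENSMUSG00000051910, chr7:115470872-116038796, minus strand), which encode closely related partners of Sox9, had 2 of the lower levels. Sox5 was at 11.8, 6.96, 12.8 and 12.5 CPM in WT and 10.98, 6.17, 7.28 and 9.95 CPM in Dp1Tyb. Sox6 was at 25.9, 13.2, 27.9 and 29.0 CPM in WT and 32.2, 16.3, 16.5 and 18.4 CPM in Dp1Tyb. In WT, replicate 2 was the low library for both, and without it the Sox5 log2 fold change went from −0.36 (SE 0.24) to −0.51. This was past an unadjusted p of 0.05 but short of the adjusted threshold (edgeR, unadjusted p = 0.036, adjusted p = 0.863). The lowest adjusted p of Sox5 over the relative alternatives was 0.510 (edgeR), with a replicate block. For Sox6, Dp1Tyb replicate 1 was the highest of all 8 libraries, and leaving it out took the log2 fold change from −0.20 (SE 0.29) to −0.49.

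In the comparison across all genes none of the 10 was called at an adjusted p under 0.05 by edgeR on either scale, against 0.0182% of all genes tested on the relative scale and 0.0121% on the spike-in scale. None had an unadjusted p under 0.05, against 4.27% and 1.17% of all genes. None had groups that did not overlap, against 3.13% and 0.431%. DESeq2 gave 0 of 10 at an adjusted p under 0.05 on both scales, against 0.316% and 0.0121% of all genes, and 0 of 10 at an unadjusted p under 0.05, against 4.32% and 0.880%. A set of 10 genes would hold few or no calls at these shares. On the relative scale 4 were higher and 6 lower in Dp1Tyb with a median log2 fold change of −0.14, beside 0.01 for all genes. On the spike-in scale 5 were higher and 5 lower with a median of 0.01, beside 0.11 for all genes.

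**Figure D4:**
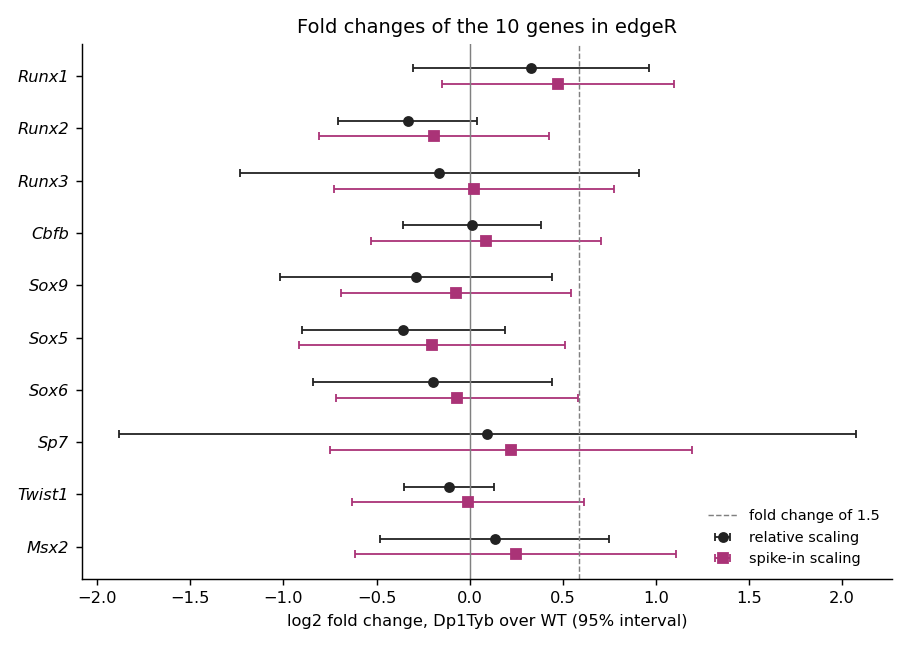
Log2 fold change of Dp1Tyb over WT for the 10 genes with its 95% interval from edgeR, for relative scaling (black circles) and spike-in scaling (purple squares). Every interval crosses 0, and the intervals run from that of Twist1 (−0.35 to 0.13) to that of Sp7 (−1.88 to 2.07) on the relative scale.

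Some members rose and fell together from library to library. Log2 CPM of 12 pairs was correlated over the 8 libraries with exact permutation p-values, adjusted over the 12. Sox5 and Sox6 had the highest coefficient (Pearson r = 0.88, exact p = 0.0066, adjusted p = 0.034; Spearman rho = 0.81, p = 0.022), and r was 0.83 without the 2 libraries of the most extreme Sox5 (exact p = 0.026, not adjusted). With 1 library left out at a time this pair passed the adjusted threshold in 1 of the 8 cases (exact permutation test, adjusted p = 0.046 to 0.101). Sox9 and Runx2 gave r = 0.86 (exact p = 0.0040, adjusted p = 0.034; rho = 0.76, p = 0.037), which fell to 0.67 without WT replicates 3 and 4 (exact p = 0.142). With 1 library left out at a time its r was 0.80 to 0.92, and it passed the adjusted threshold in 2 of the 8 cases (exact permutation test, adjusted p = 0.024 to 0.122). Sox9 and Sox5 gave r = 0.82 (exact p = 0.022, adjusted p = 0.052; rho = 0.83, p = 0.015) and 0.68 without WT replicates 3 and 4 (exact p = 0.165). Taken as deviations from the mean of each genotype, the coefficients of these 3 pairs were 0.90, 0.92 and 0.83. After adjustment no Spearman coefficient passed, the smallest adjusted p being 0.110. With any 1 library left out, 0 to 3 of the 12 Pearson pairs passed.

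**Figure D5:**
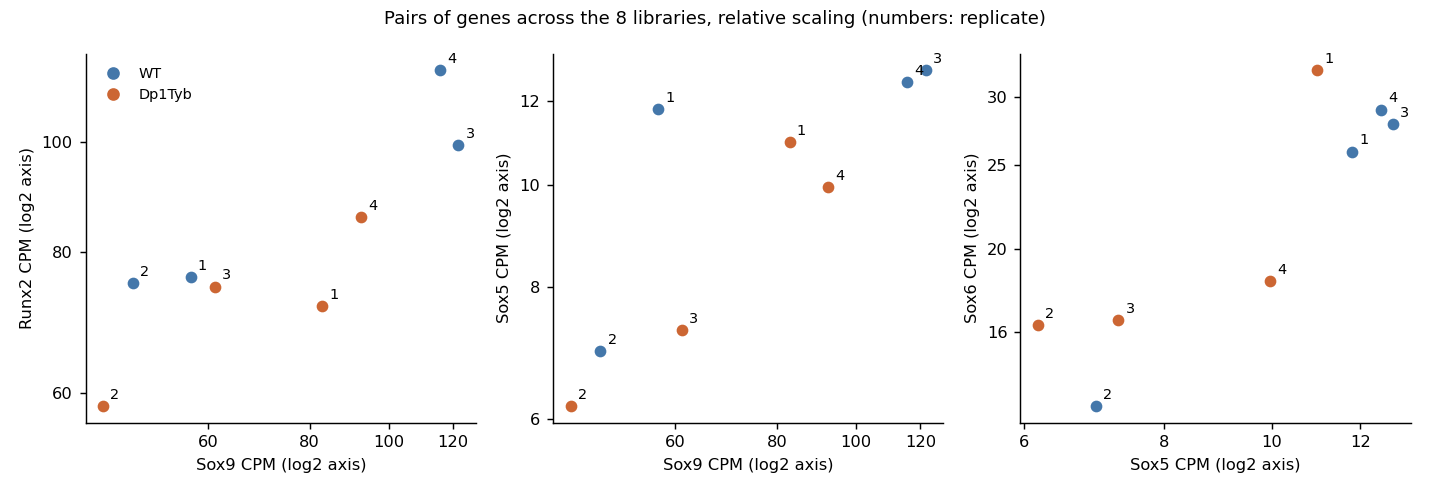
CPM on the relative scale, on log2 axes, of Sox9 against Runx2, Sox9 against Sox5 and Sox5 against Sox6, with 1 point per library numbered by replicate, WT in blue and Dp1Tyb in orange. The WT libraries 3 and 4 are at the upper end and Dp1Tyb replicate 2 is at the lower end for Sox9 with Runx2 and with Sox5.

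Runx1 and Runx2 did not follow each other on the relative scale (r = 0.03, exact p = 0.942, and rho = −0.12, p = 0.793). Without the libraries numbered 1 their r was −0.53 (exact p = 0.281). Sp7 and Msx2 gave r = 0.77 (exact p = 0.019, adjusted p = 0.052; rho = 0.60, p = 0.132), but 0.28 without the libraries numbered 1 (exact p = 0.588). Sp7 and Runx2, the factor upstream of it in osteoblasts, gave r = 0.34 (exact p = 0.412, and rho = 0.38, p = 0.360) and −0.07 without WT replicates 3 and 4 (exact p = 0.876). On the spike-in scale r was 0.40 for Runx1 with Runx2, 0.51 for Sp7 with Msx2 and 0.10 for Sp7 with Runx2. Coefficients on that scale also hold the RNA per spike-in of each library, a factor shared by all its genes. Sox9 ran against the summed level of the cartilage list (r = −0.86, exact p = 0.0085, adjusted p = 0.034; rho = −0.79, p = 0.028), of which Col11a1, a fibrillar collagen gene also active in fibroblasts, made up 84.8%. Taken singly on the relative scale, 5 of the 14 tested cartilage genes had a positive coefficient with Sox9 and 9 a negative one, from 0.71 for Hapln1, a link protein of cartilage matrix, and 0.53 for Col2a1 to −0.90 for Col11a1, and on the spike-in scale 10 were positive and 4 negative. With 1 library left out at a time the sum passed in 0 of the 8 cases (exact permutation test, adjusted p = 0.055 to 0.101). The coefficient of the sum was −0.60 without WT replicates 3 and 4 (exact p = 0.208) and turned to 0.22 on the spike-in scale. Among the 11000 genes of mean count 100 or more, the profile most like that of Runx1 over the 8 libraries was Rnf19b (r = 0.993), followed by Tanc1 (0.980) and Mical2 (0.976). For Runx2 these were Chka (0.972), Gm26679 (0.971) and Gm26523 (0.969), for Sox9 Ugdh (0.973), Avl9 (0.973) and Rbm47 (0.971), and for Twist1 Srpk2 (0.972), Lrig2 (0.968) and Pik3r3 (0.957). None of these 12 genes lies in the duplicated region, and with 8 libraries and 11000 genes the best coefficients are high in any case.

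The partners and targets of these factors were read from 6 lists. Together they held 87 tested genes, none of which was called by edgeR or DESeq2 at an adjusted p under 0.05 on either scale, and at an unadjusted p under 0.05 on the relative scale edgeR gave 6 of the 87 (6.90%, beside 4.27% of all genes) and DESeq2 at the same scaling gave 6. With spike-in scaling edgeR gave 2 (2.30%, beside 1.17% of all genes) and DESeq2 gave 1. Of the 18 Runx cofactors, 4 were higher and 14 lower in Dp1Tyb, with a median log2 fold change of −0.08. Spike-in scaling lifted the median of all genes from 0.01 to 0.11, with 11598 genes higher and 4872 lower, and on that scale 15 cofactors were higher and 3 lower with a median of 0.06, below that of all genes on both scales. The most abundant were Wwtr1 (Taz) and Yap1, the transducers of Hippo signalling, at 53.2 and 20.2 RPKM, with log2 fold changes of 0.12 (SE 0.10) and −0.02 (SE 0.08). Tle2, a Groucho corepressor, was at 4.60 ± 1.61 CPM in WT and 2.74 ± 0.560 in Dp1Tyb, a log2 fold change of −0.74 (SE 0.28, edgeR adjusted p = 0.999). Smad3, which carries TGF-beta signals, was at 88.0 ± 4.16 and 100.4 ± 9.67 CPM, with a log2 fold change of only 0.19 (SE 0.10). On the relative scale all its Dp1Tyb libraries were above all WT libraries, as for 1.64% of all genes. With spike-in scaling no cofactor had groups that did not overlap.

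Of the 21 genes of osteoblast differentiation and bone matrix 13 were tested, 8 of them higher and 5 lower, with a median of 0.13. The collagen gene Col1a1 was at 825 RPKM with a log2 fold change of 0.17 (SE 0.32). Sparc (osteonectin), a matrix glycoprotein made by fibroblasts as well as osteoblasts, was at 2514 ± 321 CPM in WT and 3129 ± 225 in Dp1Tyb, with a log2 fold change of 0.32 (SE 0.13, edgeR adjusted p = 0.999). Phex, an endopeptidase of mineralising cells, was at 0.212 RPKM and −0.49 (SE 0.28). Of the 20 genes of cartilage 14 were tested, 4 higher and 10 lower, with a median of −0.14. Col11a1 was at 23.2 RPKM and 0.21 (SE 0.18), Col10a1 at 3.64 RPKM and 0.35 (SE 0.24), and Col2a1, the main cartilage collagen and a direct target of Sox9, at 1.504 RPKM and −0.47 (SE 0.36). With spike-in scaling 9 bone genes were higher and 4 lower with a median of 0.22, and 6 cartilage genes were higher and 8 lower with a median of −0.02, beside a median of 0.11 for all genes.

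Of the 23 limb and craniofacial mesenchyme factors 22 were tested, 6 higher and 16 lower, with a median of −0.05. Spike-in scaling gave 14 higher and 8 lower with a median of 0.09, beside 0.11 for all genes. Prrx1 and Tbx15, homeobox and T-box factors of limb and skeletal mesenchyme, were the most abundant at 70.4 and 34.5 RPKM, with log2 fold changes of −0.06 (SE 0.13) and −0.02 (SE 0.13). Msx1, the relative of Msx2, was at 9.06 ± 0.381 CPM in WT and 11.7 ± 1.71 in Dp1Tyb, at a log2 fold change of 0.36 (SE 0.14, edgeR adjusted p = 0.999). Its groups did not overlap on the relative scale, as for 1.64% of all genes with Dp1Tyb higher. With spike-in scaling no gene of this list had groups that did not overlap. Tbx4, a hindlimb factor, was at 0.33 (SE 0.21). All 15 genes of BMP signalling were tested, 5 higher and 10 lower, with a median of −0.02. Spike-in scaling gave 12 higher and 3 lower with a median of 0.09, again beside 0.11 for all genes. The antagonist Grem1 was at 122 RPKM with a log2 fold change of 0.00 (SE 0.36), and the BMP targets Id1 and Id2 were at −0.01 (SE 0.19) and −0.20 (SE 0.22). Nog, another antagonist, was at −0.25 (SE 0.30).

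Of 11 haematopoietic genes known as Runx1 targets 5 were tested, and all 5 were lower in Dp1Tyb on the relative scale, with a median log2 fold change of −0.60. An unadjusted p under 0.05 was found for 3 of the 5, beside 2.53% of all genes in this direction. This share depends in part on the filter on low counts, which 1 of the 3, Lyl1, passed mainly through its higher WT counts. Lyl1, a basic helix-loop-helix factor of blood progenitors, had 40, 26, 15 and 11 counts in WT and 11, 4, 4 and 4 in Dp1Tyb (log2 −1.88, SE 0.46, edgeR adjusted p = 0.561). At these counts its place among the tested genes rested mainly on WT, so no conclusion is drawn from its fold, p or lack of overlap. Spi1 (PU.1), the myeloid factor, had 93, 92, 114 and 85 counts against 88, 37, 54 and 45 (log2 −0.70, SE 0.21, edgeR adjusted p = 0.994). Both had Dp1Tyb libraries that were all below the WT libraries in relative CPM, as did 1.49% of all genes. Csf1r, the receptor for macrophage colony-stimulating factor, was at 19.3 ± 4.94 CPM in WT and 12.8 ± 2.29 in Dp1Tyb (log2 −0.60, SE 0.20, edgeR adjusted p = 0.999). Of the 8 macrophage markers, which include Csf1r, all 8 were lower, and their sum was 273 to 374 CPM in WT and 152 to 306 in Dp1Tyb (exact permutation p = 0.0857). With spike-in scaling 4 of the 5 targets were lower and 1 higher, none had groups that did not overlap, and only Lyl1 had an unadjusted p under 0.05 (edgeR, adjusted p = 1.00). The part of such cells in these values was not tested, and in bulk RNA fewer cells of a type and less RNA per cell cannot be told apart.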

How the data were processed

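Counts per gene came from the table the authors deposited, which holds raw, unnormalised counts of 8 MEF libraries (TruSeq stranded mRNA, HiSeq, paired ends). According to the methods and the submitters' processing notes, adapters were removed with Trim Galore, reads were aligned with TopHat2 2.0.12 to GRCm38 with spike-in sequences, reads with several alignments were discarded, and HTSeq counted reads per gene. Discarding such reads lowers genes with close copies. The annotation release and strand option of the counting are not given in the sources used here. The normalised values and comparison columns deposited beside them were not used.

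Total counts were 17698900 to 26471758. Positions and exon lengths came from GENCODE M21 (GRCm38), which matched 19318 gene IDs. Relative scaling used TMM factors over endogenous genes and spike-in scaling used median-of-ratios factors over 63 spike-ins. filterByExpr kept 16470 genes. Genotypes were compared in edgeR 4.0.16 (R 4.3.3) by its two-sided quasi-likelihood F-test, with Benjamini-Hochberg adjustment over all genes, and called at 0.05. DESeq2 1.42.0 was an alternative. Log2 CPM used a pseudocount of 0.5. Ratios were tested over the 70 assignments of libraries. The fits were tested on simulated data. No 2 libraries of a genotype agreed within sampling noise. The methods describe cultures from littermate embryos.

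The members, lists and tests were chosen with earlier results of these data known. All members were named. For each list the 2 genes of highest mean RPKM and the 2 of smallest unadjusted p were named. Also named were the 2 nearest tested genes outside Runx1 on each side and genes overlapping members. The 3 genes most correlated with Runx1, Runx2, Sox9 and Twist1 were named too. Marker lists of fibroblasts, macrophages, endothelial, muscle, epithelial, neural, erythroid and T cells, chondrocytes and osteoblasts were summed per library.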

Additional observations from a re-analysis of the deposited data

Results flagged for a closer look

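In 4 of the 58 groups of 4 libraries that were checked, 1 library lay far from the rest, beyond Dixon's critical value. Chance gives about 1 in 20. Sox5 and Sox6 were low in WT replicate 2 on the relative scale, where the gap to the next library was 0.862 and 0.859 of the whole range. Twist1 was high in Dp1Tyb replicate 1 on the relative scale (0.875). Cbfb was low in WT replicate 3 on the spike-in scale (0.843).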

How the results depend on the processing

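None of the 10 genes was called under any alternative that was run, on either scale. Over those alternatives the direction of Runx1, Runx2, Sox5, Sox6, Sox9 and Twist1 did not change on the relative scale, and on the spike-in scale that of Runx1 and Msx2 did not change. Cbfb, Runx3, Sp7 and Msx2 changed direction under 6, 2, 4 and 1 relative alternatives.

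The count of genes called across the genome moved far more. On the relative scale, where 3 genes were called, there were 52 with DESeq2 at the same scaling and 53 with its own size factors (an alternative chosen after seeing the data), 1 at an adjusted p under 0.01, 0 with a mean count of at least 100, 1 with any 1 library left out and 1 without both libraries numbered 1 (also chosen after seeing the data). On the spike-in scale, where 2 were called, there were 0 with a mean count of at least 100 and 2 to 8 with 1 library left out. The causes were not tested.

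Same-numbered libraries did not all deviate together from their genotype means (r = 0.32, 0.62, −0.08 and 0.45 for numbers 1 to 4), so the numbers were not taken as pairs, and 2 libraries correlated best with another number. With a replicate block 7 genes were called on the relative and 9 on the spike-in scale. On the relative scale 3 of the 10 genes then had an unadjusted p under 0.05, against 9.72% of all genes in that fit, with Runx1 at 0.35 (edgeR adjusted p = 0.384), Runx2 at −0.32 (adjusted p = 0.355) and Sox5 at −0.36 (adjusted p = 0.510), and on the spike-in scale 0, against 3.03%. The relative distance of Runx1 from a fold change of 1.5 was −0.24, now past an unadjusted p of 0.05.

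Of the 12 correlations 3 passed on the relative scale, 5 on the spike-in scale and 0 to 3 with 1 library left out. The 5 were Sox5 with Sox6 (r = 0.94), Runx2 with Sox9 (0.91) and with Twist1 (0.86), and Sox9 with Sox5 (0.90) and with Sox6 (0.83). On the relative scale Runx2 with Twist1 gave only 0.46. On the spike-in scale all genes of a library share 1 factor, its endogenous RNA per spike-in. This factor ran from 0.688 in Dp1Tyb replicate 2 to 1.31 in Dp1Tyb replicate 4, and such a shared factor can raise r between any 2 genes. Its part in these coefficients was not tested, so no conclusion on the members is drawn from the 5. Runx2 with the summed bone list went from −0.72 on the relative scale to 0.21 on the spike-in scale, passing on neither. Sox9 with the cartilage list reversed to 0.22 on the spike-in scale. The mean RPKM of Runx1 moved to 31.6 with the longest transcript as length. Counts below about 50 per library, as for Sp7, limit precision by sampling alone.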

Other observations

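Of the markers of other cell types, the summed level of the skeletal muscle list, for which Myod1 and Myf5 had no row, was 36.7, 52.0, 61.3 and 70.04 CPM in WT and 42.5, 78.8, 70.1 and 127 CPM in Dp1Tyb (exact permutation p = 0.257). The endothelial list, without Tie1, summed to 34.0 to 56.4 CPM in WT and 31.8 to 78.9 in Dp1Tyb (exact permutation p = 0.714). The neural list, without Elavl3, summed to 50.1 to 55.8 CPM in WT and 36.4 to 54.9 in Dp1Tyb (exact permutation p = 0.457). The epithelial list, without Krt5, summed to 6.48 to 20.02 CPM in WT and 4.87 to 14.7 in Dp1Tyb (exact permutation p = 0.971). Alas2, the only erythroid marker with a row, was at 4.24 to 7.15 CPM in WT and 2.13 to 5.72 in Dp1Tyb (exact permutation p = 0.429). The chondrocyte list summed to 15.1 to 39.9 CPM in WT and 20.6 to 33.3 in Dp1Tyb (exact permutation p = 0.343), and the osteoblast list to 2.13 to 6.62 and 2.17 to 12.2 CPM (exact permutation p = 0.8286). None of these sums separated the genotypes. Taken singly, all 5 tested muscle markers were higher in Dp1Tyb and all 4 tested chondrocyte markers were lower. The wider cartilage list was not uniform. On the relative scale 4 of its 14 tested genes were higher and 10 lower, and its most abundant genes, Col11a1 and Col10a1, were among the higher. The endothelial list had 1 higher and 4 lower, the neural list 1 and 3, and the epithelial and osteoblast lists 1 and 2 each.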
